A study of Mus musculus with 18 samples.

Results

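This account covers the pull-down of tagged ribosomes from the mouse retina against its input: 3 positive and 3 input libraries, which are 6 of the 18 libraries of a series that also profiled choroid and brain. The libraries were chosen by tissue and fraction, and all 12369 genes listed for the retina were tested (14068 genes are listed for at least 1 of the 3 tissues). All animals, those that gave the inputs included, carried a Tie2-cre transgene and the NuTRAP allele, which puts GFP on the ribosomal protein Rpl10a in cells with a history of Cre. The columns of all groups are also tagged WT, which the labels do not explain. Each replicate (421, 953 and 960) pooled 2 retinae. Tissue was homogenized with cycloheximide, spun at 12000 g, and 150 µl of the supernatant was kept as input, while the rest was incubated with an antibody to GFP (translating ribosome affinity purification, TRAP). The RNA that came down with the antibody is the positive fraction. No age, sex or strain is given in the sources used here, and neither animals without Cre nor a mock precipitation were analysed here. RNA that binds without the tag was therefore not measured. Replicates are labelled as biological, and each input comes from the lysate of its positive library.

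The retina has its own blood supply in its inner layers, lined by endothelial cells joined by tight junctions and rich in transporters, the inner blood-retina barrier. Norrin, a ligand made by Müller glia, signals through Fzd4, Lrp5 and Tspan12 on these cells to build and keep that barrier. Endothelial cells are rare among the photoreceptors, interneurons and glia of the tissue, and the Tie2 promoter is also active in the haematopoietic lineage, to which microglia and other macrophages belong.

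Levels are given as CPM, the usual depth-scaled count, here over the total of listed genes and after scaling for library composition, always in the order of replicates 421, 953 and 960. A gene was called higher or lower in the positive fraction at a Benjamini-Hochberg adjusted p under 0.05 in edgeR's quasi-likelihood F test (3 positive against 3 input libraries), and ± after a log2 fold change is its standard error. A value with ± in parentheses after a gene's levels is its log2 fold change, positive minus input. Of the 12369 genes, 2226 (18%) were higher and 1696 (13.7%) lower, and 1074 (8.68%) and 113 (0.914%) of them by at least 2-fold. The median log2 fold change over all genes was -0.01. Without input 421, 953 or 960 the counts higher and lower were 1355 and 710, 1292 and 659, and 1314 and 586, and without positive library 421, 953 or 960 they were 2387 and 2018, 1508 and 856, and 3095 and 2653. A gene is listed where every library of at least 1 fraction reaches a raw value of 50, so 327 genes are listed through the positive fraction alone, and 326 of these were higher. Their number supports nothing, because a gene could enter that way only by being high there. Of the 12042 genes listed by their input, 1900 (15.8%) were higher and 1696 (14.1%) lower, and list counts below are set against these shares.

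Depth over listed genes ran from 15243098 to 21521130 counts in the inputs and was lower in the positive libraries, at 6690618, 6260958 and 11071373 counts. Log2 CPM of the inputs correlated at 0.992 to 0.994 across genes, which are not independent replicates. Positive libraries 421 and 960 correlated at 0.943, and each correlated with 953 at 0.966 and 0.973. Correlation with the inputs was 0.815 to 0.818 for positive 421, 0.852 to 0.855 for 953 and 0.883 to 0.888 for 960, so library 960 was nearest to the input and 421 farthest. Of the tissue's defining markers, all 23 rod genes are listed, and Gnat1, the rod transducin, stood at 9830.1, 9934 and 9496 CPM in the inputs.

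The endothelial markers were scarce in the input and high in every positive library. Cldn5, the tight junction claudin of neural vessels (chr16:18776847-18778262, build mm10), was at 4.59, 4.58 and 4.61 CPM in the inputs and at 583, 451 and 439 CPM in the positive libraries. Cdh5, the VE-cadherin of endothelial adherens junctions (chr8:104101625-104144502), went from 1.44, 1.59 and 1.39 to 268, 181 and 116 CPM. Ly6c1, a surface antigen of capillary endothelium in neural tissue (chr15:75044018-75048837), went from 1.12, 1.54 and 2.36 to 262, 235 and 242 CPM. The positive libraries did not overlap with the inputs for any of these, and Ly6c1 was nearly level across the positive libraries while Cdh5 was lowest in 960. The log2 fold changes were 6.74 ± 0.17 for Cldn5 (adjusted p = 4.02e-07), 6.98 ± 0.35 for Cdh5 (adjusted p = 2.33e-06) and 7.18 ± 0.22 for Ly6c1 (adjusted p = 5.52e-07), or 107-, 126- and 145-fold. Cdh5 and Ly6c1 are listed through the positive fraction alone, which a gene could enter only by being high there. Cldn5 is listed by its input as well. Pde6h, the inhibitory subunit of the cone phosphodiesterase (chr6:136954523-136963483), moved the other way, from 112, 116 and 110.1 CPM in the inputs to 25.8, 16.0 and 28.7 CPM (log2 fold change -2.25 ± 0.19, adjusted p = 4.53e-05). Rpl10a itself, which carries the tag, rose from 212, 199.5 and 193 to 421, 378 and 375 CPM (log2 fold change 0.96 ± 0.11, adjusted p = 2.45e-04). The tables do not separate the tagged from the native transcript.

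**Figure D1:**
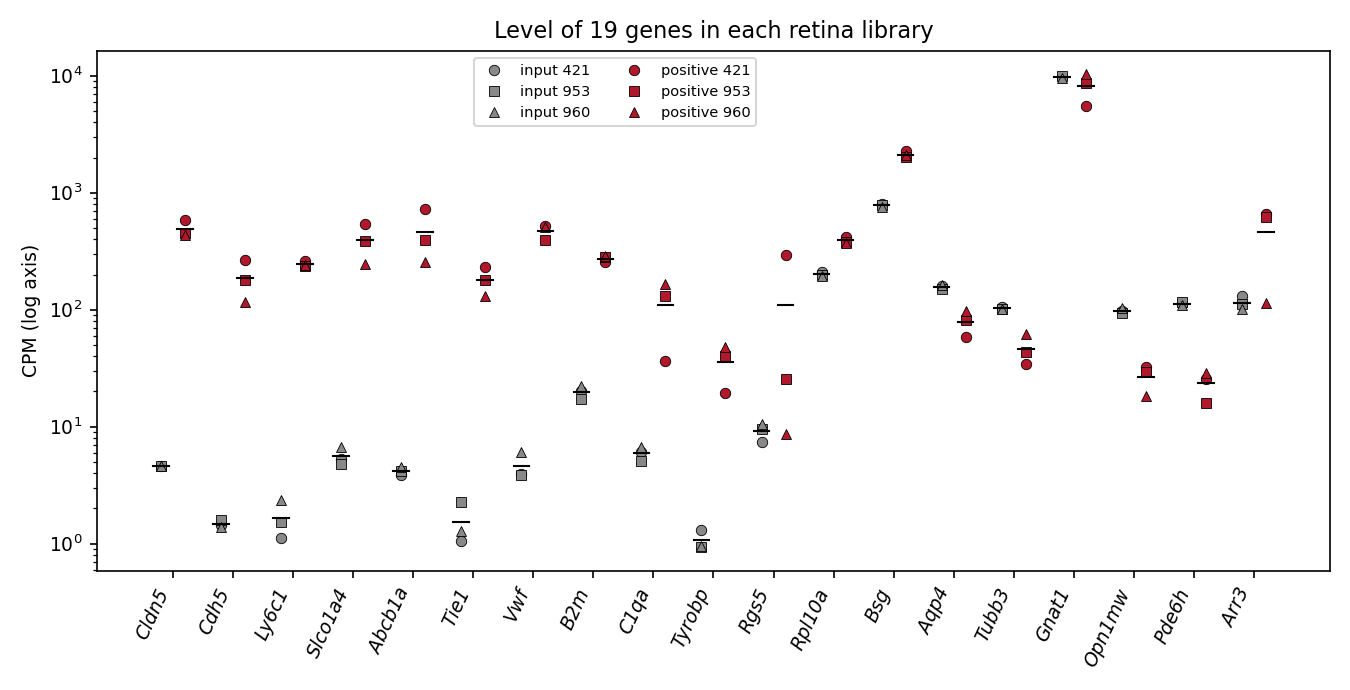
Level of 19 genes in each retina library in CPM on a log axis, with grey for input, red for positive, the marker shape for the replicate and a bar for the mean of 3 libraries. Cldn5, Cdh5 and Ly6c1 lie far above their inputs in every positive library, C1qa is lowest in positive 421, Rgs5 is high in positive 421 only, and Arr3 in positive 960 (115 CPM) lies within the inputs.

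The general endothelial list had 35 genes, and 34 are in the retina table. Of the 12 listed by their input, 11 rose and 1 did not pass, with a median log2 fold change of 4.23. The other 22, Tek and Tie1 among them, entered through the positive fraction, and all of those rose. Pull-down levels were high in absolute terms for the receptor phosphatase Ptprb, at 1039.7, 651 and 467 CPM against 6.23, 9.25 and 8.84 CPM, and for the clotting protein von Willebrand factor, Vwf, at 524, 393 and 507 against 3.94, 3.88 and 6.05 CPM. Their log2 fold changes were 6.46 ± 0.34 (adjusted p = 3.01e-06) and 6.68 ± 0.23 (adjusted p = 5.55e-07). The angiopoietin receptor Tek, whose promoter drives the Cre, was at 3.41, 1.64 and 2.62 CPM in the inputs and 307, 242 and 174 CPM in the positive libraries (log2 fold change 6.58 ± 0.31, adjusted p = 1.68e-06). Its partner Tie1 went from 1.05, 2.29 and 1.29 to 232, 179 and 129.9 CPM (log2 fold change 6.82 ± 0.32, adjusted p = 1.68e-06). In Ptprb, Tek and Tie1 alike the positive libraries ran in the order 421, 953, 960 from high to low. The single listed endothelial gene that was not called was Kdr, the main VEGF receptor, at 144, 113 and 129.6 CPM in the inputs and 212, 109.6 and 119.9 CPM in the positive libraries (log2 fold change 0.19 ± 0.23, adjusted p = 0.555). Its input level was the highest of the list, and its fractions overlapped. In bulk RNA, fewer cells of a type and less RNA per cell cannot be told apart.

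Regulators of endothelial identity followed the same direction. Of 22 listed members, 15 entered through the positive fraction, and of the 7 listed by their input 5 rose and 2 did not pass (median 1.08). Erg, Fli1, Sox17, Gata2, Foxf2 and Mecom, described next, are among the 15. The ETS factor Erg, which holds endothelial cells in their lineage, was at 0.656, 0.187 and 0.107 CPM in the inputs and 66.1, 45.5 and 27.0 CPM in the positive libraries. The related factor Fli1 was at 0.525, 0.467 and 0.375 (input) and 55.9, 54.5 and 35.8 CPM (positive), and the SOX factor Sox17, an artery and barrier gene, at 0.263, 0.561 and 0.804 (input) and 94.3, 66.7 and 46.3 CPM (positive). None of the 3 overlapped between fractions, with log2 fold changes of 7.25 ± 0.52 (adjusted p = 1.76e-05), 6.72 ± 0.27 (adjusted p = 8.31e-07) and 6.92 ± 0.38 (adjusted p = 3.40e-06). Gata2, a zinc finger factor shared with blood cells, went from 0.197, 0.467 and 0.429 to 59.4, 40.3 and 38.4 CPM (log2 fold change 6.89 ± 0.31, adjusted p = 1.39e-06). Foxf2, a forkhead factor, went from 0.656, 0.934 and 0.429 to 78.6, 46.1 and 47.1 CPM, and Mecom, a zinc finger factor, from 0.459, 0.234 and 0.696 to 58.8, 31.2 and 21.5 CPM. Input counts of Erg, Fli1, Gata2 and Mecom were 16, 25, 21 and 25 over all 3 libraries, so their fold changes are imprecise and depend on the small count that the model adds. The ETS factor Etv6, at 24.9, 26.5 and 32.6 (input) and 30.5, 27.6 and 38.5 CPM (positive), was not called (adjusted p = 0.355).

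The 250 bases before the start site were read for genes of the endothelial, rod, cone and microglia lists, called or not. They came from RefSeq promoters of build GRCm38.p6, which had an entry for 17 of the listed endothelial genes and 15 of the 23 rod genes. They were searched on both strands for the core of the ETS motif (CCGGAAG or CAGGAAG), the core of the CRX motif of photoreceptors (TAATCC) and the CREB motif (TGACGTCA). The ETS core occurred in 7 of 23 endothelial promoters (30.4%), in 3 of 15 rod promoters (20.0%), in 4 of 9 microglia promoters (44.4%) and in 2512 of 11901 promoters of all retina genes (21.1%). The CRX core occurred in 7 of 15 rod promoters (46.7%), in 2 of 17 cone promoters (11.8%), in 2 of 23 endothelial promoters (8.70%) and in 5.13% of all. The CREB motif occurred in 1 of 23 endothelial promoters and 2.66% of all. A match is only a run of letters in this window, and its absence says nothing of the factor. Shown are 3 endothelial promoters with an ETS core and 2 rod promoters with a CRX core. They have the largest absolute fold changes after the promoters of a single chromosome were left out of the choice. Sequences run 5′ to 3′ on the gene's strand, with every match of the 3 motifs on either strand in capitals. Robo4 therefore also shows a CRX core and Sag an ETS core. The promoters shown belong to Erg (chr16:95459349-95459598, minus strand), the sialomucin Cd34 (chr1:194938571-194938820, plus strand), the guidance receptor Robo4 (chr9:37401722-37401971, plus strand), the rod arrestin Sag (chr1:87803430-87803679, plus strand) and the rod channel subunit Cngb1 (chr8:95306586-95306835, minus strand).
Erg: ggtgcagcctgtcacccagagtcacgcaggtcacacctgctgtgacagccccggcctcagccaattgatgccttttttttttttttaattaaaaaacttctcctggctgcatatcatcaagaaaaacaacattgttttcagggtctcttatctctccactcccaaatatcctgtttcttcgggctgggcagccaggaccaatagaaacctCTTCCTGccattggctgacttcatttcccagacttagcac
Cd34: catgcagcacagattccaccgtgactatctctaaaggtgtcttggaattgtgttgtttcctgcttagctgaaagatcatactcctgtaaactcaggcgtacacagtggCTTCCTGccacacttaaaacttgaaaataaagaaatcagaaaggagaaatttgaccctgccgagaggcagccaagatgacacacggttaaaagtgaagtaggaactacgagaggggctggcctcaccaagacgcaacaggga
Robo4: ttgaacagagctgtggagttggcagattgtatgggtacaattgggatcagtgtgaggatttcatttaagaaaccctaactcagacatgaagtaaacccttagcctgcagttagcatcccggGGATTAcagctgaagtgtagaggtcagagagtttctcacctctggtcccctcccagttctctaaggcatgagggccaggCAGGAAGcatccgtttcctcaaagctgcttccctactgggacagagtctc
Sag: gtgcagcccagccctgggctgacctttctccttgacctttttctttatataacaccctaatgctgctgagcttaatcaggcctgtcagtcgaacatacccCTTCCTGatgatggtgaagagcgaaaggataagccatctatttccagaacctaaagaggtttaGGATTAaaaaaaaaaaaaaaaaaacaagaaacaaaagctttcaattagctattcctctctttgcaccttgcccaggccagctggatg
Cngb1: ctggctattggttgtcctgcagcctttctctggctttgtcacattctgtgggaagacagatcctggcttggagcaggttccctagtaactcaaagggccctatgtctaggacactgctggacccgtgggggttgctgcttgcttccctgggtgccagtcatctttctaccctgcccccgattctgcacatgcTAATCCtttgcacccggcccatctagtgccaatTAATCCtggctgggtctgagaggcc
Robo4 rose from 0.459, 1.21 and 0.804 to 91.2, 73.1 and 46.3 CPM (log2 fold change 6.33 ± 0.36, adjusted p = 3.93e-06) and Cd34 from 1.90, 1.78 and 2.36 to 209, 176 and 139 CPM (log2 fold change 6.43 ± 0.21, adjusted p = 5.55e-07). The values of the rod genes are given with the photoreceptors.

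**Figure D2:**
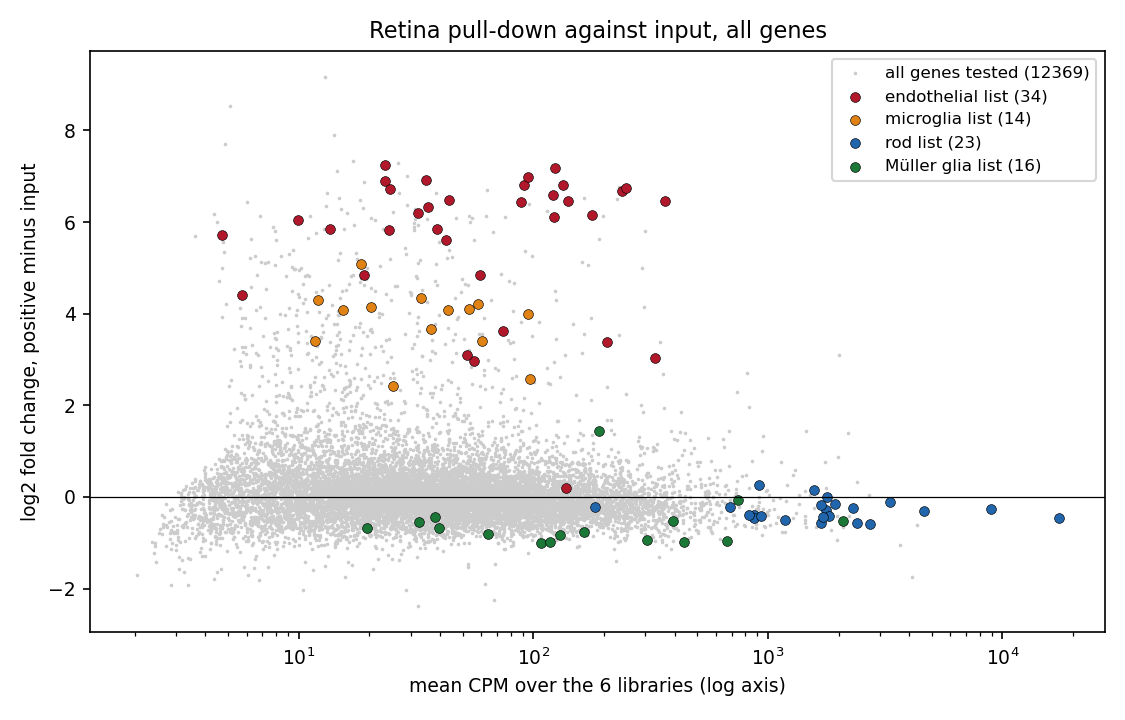
Log2 fold change (positive minus input) of all 12369 genes against their mean CPM over the 6 libraries on a log axis, with members of 4 gene lists coloured. Endothelial genes lie far above 0 (Erg at 7.25) except Kdr at 0.19, microglia genes lie above 2 (Tyrobp at 5.08), and rod genes, the most abundant, lie near 0.

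Transporters of the blood-retina barrier rose in most members. All 24 of the list are in the table. Of the 18 listed by their input, 11 rose and 7 did not pass (median 1.62), and 6 more, all higher, entered through the positive fraction. The efflux pump Abcb1a, P-glycoprotein, went from 3.87, 4.20 and 4.55 to 726, 398 and 255 CPM (log2 fold change 6.76 ± 0.41, adjusted p = 6.21e-06), and the organic anion transporter Slco1a4 from 5.32, 4.77 and 6.70 to 539, 387 and 247 CPM (6.13 ± 0.32, adjusted p = 2.67e-06). The efflux pump Abcc4 was at 2.56, 1.82 and 2.68 (input) and 141, 65.2 and 58.1 CPM (positive), and the lipid transporter Mfsd2a, which holds down transcytosis, at 0.919, 1.35 and 1.55 (input) and 72.5, 34.2 and 22.2 CPM (positive) (5.03 ± 0.48, adjusted p = 9.39e-05). In these 4 genes, positive 421 was highest and 960 lowest. The amino acid transporter Slc38a5 ran the other way, at 9.04, 18.7 and 36.3 CPM in the positive libraries against 0.525, 0.467 and 1.29 CPM in the inputs (4.82 ± 0.58, adjusted p = 4.34e-04), but it too did not overlap. Slc2a1, the glucose transporter of barrier endothelium, falls outside the rule for named genes and was added after its values were seen: it was already at 219.8, 218 and 216 CPM in the inputs and reached 1766, 1361 and 1111 CPM (2.70 ± 0.18, adjusted p = 1.01e-05). Of the 7 that did not pass, the taurine transporter Slc6a6 was at 2011, 1981 and 1978 (input) and 1979, 1747 and 1631 CPM (positive; adjusted p = 0.385) and the monocarboxylate transporter Slc16a1 at 284, 261 and 252 (input) and 369, 226 and 294 CPM (positive; adjusted p = 0.495).

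Of 15 junction genes listed by their input, 8 rose and 7 did not pass (median 0.54), and 3 more rose that entered through the positive fraction. Besides Cldn5 and Cdh5, the tight junction protein occludin, Ocln, went from 1.58, 1.82 and 3.27 to 85.8, 58.7 and 41.1 CPM (4.78 ± 0.35, adjusted p = 1.91e-05). Lsr, angulin-1 of tricellular junctions, went from 4.53, 4.67 and 3.86 to 107, 76.3 and 82.2 CPM (4.34 ± 0.18, adjusted p = 8.31e-07). The adhesion molecule Esam went from 11.6, 10.6 and 11.4 to 164, 127 and 122 CPM (3.62 ± 0.15, adjusted p = 8.31e-07), and the cytoplasmic scaffold Cgnl1 from 14.7, 12.6 and 20.7 to 361, 107 and 78.1 CPM (3.50 ± 0.55, adjusted p = 0.00202), with positive 421 far above the other two. All 4 lay above every input, and positive 421 was the highest library in each.

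The receptors of Norrin and several Wnt effectors rose, and the ligand did not. Of 14 members listed by their input, 9 rose, 1 fell and 4 did not pass (median 0.79), and 5 more rose that entered through the positive fraction. The receptor Fzd4 was at 19.1, 20.1 and 18.7 CPM in the inputs and 72.0, 49.8 and 32.8 CPM in the positive libraries (1.41 ± 0.25, adjusted p = 0.00370), its co-receptor Lrp5 at 17.5, 12.5 and 16.5 (input) and 109.7, 65.6 and 65.2 CPM (positive) (2.37 ± 0.23, adjusted p = 1.16e-04), and the tetraspanin Tspan12 at 8.53, 10.8 and 9.48 (input) and 24.6, 29.8 and 25.7 CPM (positive) (1.47 ± 0.16, adjusted p = 2.28e-04). None of these 3 overlapped between fractions. They and the ligand were added after their values were seen, because they make up the Norrin receptor. Ndp, which encodes Norrin, was the member that was lower, at 8.07, 7.57 and 6.43 CPM in the inputs and 4.15, 5.39 and 4.40 CPM in the positive libraries (-0.67 ± 0.21, adjusted p = 0.0406). That call was lost without each of the 6 libraries in turn (adjusted p = 0.143, 0.129 and 0.0759 without input 421, 953 or 960 and 0.0731, 0.0553 and 0.0712 without those positive libraries) and in the fit with the replicate block (-0.66, adjusted p = 0.0728). Reck, the partner of the receptor Gpr124 in Wnt7 signalling, went from 19.8, 23.4 and 25.5 to 180.3, 120.3 and 116 CPM (2.60 ± 0.19, adjusted p = 2.08e-05). The nuclear effectors Lef1 and Tcf7 went from 1.31, 0.934 and 0.857 to 98.3, 44.9 and 39.6 CPM and from 1.44, 1.12 and 1.45 to 22.2, 11.3 and 10.3 CPM, and the forkhead factor Foxq1 from 0.788, 0.934 and 1.12 to 82.9, 60.7 and 39.9 CPM. In these 3 genes positive 421 was highest and 960 lowest. The target Axin2, which many retinal cells use, was at 42.5, 42.7 and 39.6 (input) and 67.2, 37.7 and 47.7 CPM (positive) and was not called (adjusted p = 0.271).

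Of 11 Notch and artery genes listed by their input, 6 rose and 5 did not pass (median 0.54), and 6 more rose that entered through the positive fraction. The Notch ligand Dll4 went from 0.459, 0.747 and 0.911 to 41.5, 27.3 and 19.4 CPM (5.33 ± 0.37, adjusted p = 1.33e-05), the receptor Notch4 from 1.51, 2.38 and 2.14 to 125, 72.9 and 59.1 CPM (5.38 ± 0.33, adjusted p = 6.24e-06), and the artery kinase Bmx from 0.263, 0.701 and 0.696 to 53.5, 40.1 and 26.6 CPM (6.10 ± 0.38, adjusted p = 6.41e-06). The artery semaphorin Sema3g went from 2.36, 2.01 and 2.89 to 197, 104 and 97.2 CPM, and the artery connexin Gja4 from 0.788, 0.280 and 0.750 to 20.6, 11.4 and 9.70 CPM. In all 5 genes positive 421 was highest and 960 lowest. The receptor Notch2 and the DNA-binding partner Rbpj, were not called (adjusted p = 0.140 and 0.0886), although Rbpj was lower without positive 421 (-0.32, adjusted p = 0.0275). Of 4 vein and capillary genes listed by their input, 3 rose (median 0.74), and 4 more rose that entered through the positive fraction. Tfrc, the transferrin receptor, did not pass (adjusted p = 0.124), but was lower without positive 421 (-0.43, adjusted p = 0.00976). Among the higher ones were the vein receptor Ephb4 from 2.56, 3.64 and 5.57 to 75.2, 61.8 and 45.0 CPM (3.93 ± 0.29, adjusted p = 2.07e-05), the capillary carbonic anhydrase Car4 from 0.459, 0.374 and 0.429 to 33.2, 25.2 and 11.7 CPM (5.76 ± 0.46, adjusted p = 3.26e-05), and the leukocyte adhesion molecule Vcam1 from 6.76, 7.47 and 7.77 to 51.3, 73.7 and 76.0 CPM (3.19 ± 0.18, adjusted p = 3.81e-06). Car4 was highest in positive 421 and Vcam1 lowest there. Input counts of Car4 were 23 over all 3 libraries, so its fold change is imprecise. The venule genes Ackr1, Selp and Sele, which mark vessels that recruit leukocytes, are not listed for the retina.

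Of 7 VEGF pathway genes listed by their input, 4 rose and 3 did not pass (median 0.91), and 1 more rose that entered through the positive fraction. The VEGF receptor Flt1 went from 67.9, 60.6 and 87.9 to 953, 477 and 331 CPM (3.02 ± 0.36, adjusted p = 4.31e-04), Flt4 from 7.02, 6.63 and 7.61 to 90.3, 53.9 and 35.2 CPM (3.07 ± 0.32, adjusted p = 1.62e-04) and the co-receptor Nrp1 from 11.7, 10.4 and 14.5 to 81.2, 56.3 and 54.7 CPM (2.39 ± 0.20, adjusted p = 3.81e-05). In all 3 receptors positive 421 was highest and 960 lowest. Among ligands, Vegfc rose from 2.17, 1.87 and 1.71 to 22.2, 13.8 and 13.7 CPM (3.11 ± 0.26, adjusted p = 4.70e-05) and Vegfb was not called, at 48.1, 44.0 and 43.0 (input) and 43.6, 48.7 and 53.7 CPM (positive; adjusted p = 0.486). Of 16 BMP and TGF-beta genes listed by their input, 11 rose, 1 fell and 4 did not pass (median 0.92). With the replicate block 2 fell. The member that fell was the receptor Bmpr1a, named after its value was seen (-0.70 ± 0.14, adjusted p = 0.00572). The BMP9 receptor Acvrl1 went from 5.05, 3.64 and 4.39 to 237, 162 and 139 CPM, its co-receptor endoglin, Eng, from 3.41, 2.76 and 4.39 to 328, 215 and 182 CPM, and the target Id1 from 3.48, 4.48 and 3.75 to 118, 88.3 and 89.8 CPM, with log2 fold changes of 5.37 ± 0.24 (adjusted p = 1.58e-06), 6.10 ± 0.29 (adjusted p = 1.66e-06) and 4.65 ± 0.18 (adjusted p = 6.03e-07). The ligand Tgfb1 rose from 0.984, 0.981 and 1.12 to 23.7, 28.1 and 25.5 CPM (4.63 ± 0.20, adjusted p = 1.06e-06) and was nearly level across the positive libraries, whereas Tgfb3 was not called, at 24.3, 23.4 and 23.2 (input) and 18.2, 21.9 and 24.4 CPM (positive; adjusted p = 0.512). The flow-responsive factors Klf2 and Klf4 went from 1.71, 2.52 and 2.20 to 185, 134 and 130.0 CPM (6.10 ± 0.21, adjusted p = 5.71e-07) and from 1.64, 1.49 and 0.964 to 133, 83.1 and 62.1 CPM (6.08 ± 0.35, adjusted p = 4.17e-06), and the anticoagulant receptor Thbd from 1.38, 0.747 and 1.02 to 95.5, 59.9 and 53.4 CPM. Of 5 flow and haemostasis genes listed by their input, 3 rose and 2 did not pass (median 2.97), and 5 more rose that entered through the positive fraction.

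Caveola genes did not move alike. The coats Ptrf (Cavin1) and Sdpr (Cavin2) went from 12.0, 10.7 and 8.79 to 325, 223 and 162 CPM (4.50 ± 0.27, adjusted p = 5.50e-06) and from 2.10, 1.12 and 2.14 to 178, 117 and 78.7 CPM (6.14 ± 0.38, adjusted p = 6.14e-06). Cav2, which forms caveolae with caveolin-1, was already at 34.5, 36.5 and 34.3 CPM in the inputs and rose to 75.7, 78.6 and 68.2 CPM (1.08 ± 0.11, adjusted p = 1.38e-04). Caveolin-1, Cav1, went from 61.7, 56.1 and 51.4 to 94.6, 98.8 and 107 CPM (0.83 ± 0.11, adjusted p = 8.10e-04). In both coats positive 421 was highest and 960 lowest, and both caveolins were nearly level across the positive libraries. The fenestration protein Plvap, which barrier endothelium lacks, was at 18.2, 15.2 and 12.9 CPM in the inputs and 16.6, 23.6 and 17.6 CPM in the positive libraries and was not called (0.32 ± 0.20, adjusted p = 0.248).

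**Figure D3:**
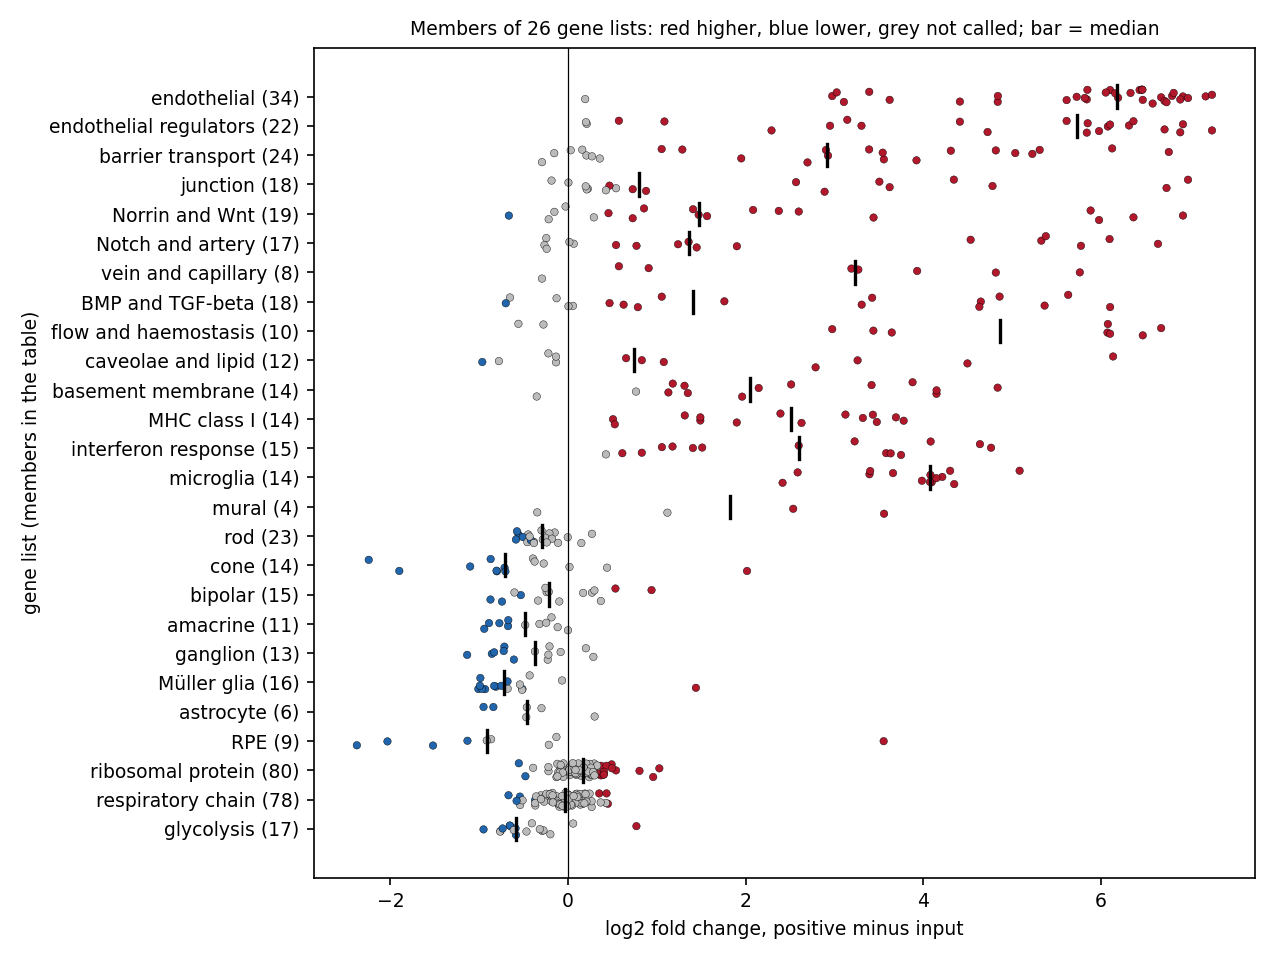
Log2 fold change (positive minus input) of the members of 26 gene lists, red where higher, blue where lower and grey where not called, with a bar at each list's median over its members in the table. The endothelial, microglia and flow lists lie far to the right, with medians of 4.23, 3.82 and 2.97 over members listed by their input and 6.18, 4.08 and 4.86 with those that entered through the positive fraction, Müller glia genes lie left of 0 except Vim, and 1 RPE member, Stra6, stands apart at 3.55.

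Basement membrane genes rose most in positive library 421. Of 12 listed by their input, 10 rose and 2 did not pass (median 1.65). Fibronectin, Fn1, went from 30.3, 32.7 and 32.0 to 1144, 355 and 189.8 CPM (4.15 ± 0.60, adjusted p = 0.00121), the collagen Col4a1 from 30.6, 27.7 and 31.7 to 307, 126 and 81.1 CPM (2.51 ± 0.42, adjusted p = 0.00291), and the heparan sulfate proteoglycan perlecan, Hspg2, from 5.97, 5.89 and 6.05 to 171, 60.6 and 33.9 CPM (3.88 ± 0.55, adjusted p = 0.00106). In each, 421 was at least 2-fold above 953 and 960 was lowest. Of 4 listed markers of mural cells, the pericytes and smooth muscle cells that share this membrane, 3 were highest in the same library. Rgs5, a pericyte gene, was at 292, 25.5 and 8.71 CPM in the positive libraries and 7.42, 9.48 and 10.5 CPM in the inputs, so library 421 stood far above the inputs and library 960 within them. The mural receptor Notch3 was at 5.84, 4.34 and 4.29 (input) and 67.9, 8.56 and 8.08 CPM (positive), and the mural receptor Pdgfrb at 13.1, 11.4 and 12.6 (input) and 63.4, 10.1 and 7.99 CPM (positive). The fit called Rgs5 higher (3.56 ± 1.08, adjusted p = 0.0354), but without positive 421 it gave 0.85 (adjusted p = 0.107), and the call was also lost without positive 953 (adjusted p = 0.0533) and without input 421, 953 or 960 (adjusted p = 0.109, 0.105 and 0.103). Notch3 was also called (2.53 ± 0.76, adjusted p = 0.0347), and the call was lost without input 421, 953 or 960 (adjusted p = 0.0833, 0.108 and 0.110), while without positive 421 the value was 0.79 (adjusted p = 0.0272). Only 4 of the 15 mural genes are listed, the other being Vtn, at 941, 938 and 871 (input) and 727, 635 and 798 CPM (positive), and Acta2, Tagln, Myh11 and Cspg4 are not. Vtn lay far above the other 3 in the inputs and below its inputs in every positive library, 421 included. It was not called, but was lower in DESeq2 (-0.34, adjusted p = 0.0241) and without positive 421 or 960 (adjusted p = 0.0428 and 0.0113). Summed over the 4, the inputs held 967, 963 and 899 CPM and the positive libraries 1151, 679 and 823 CPM. Most of this was Vtn, so the sum says little of the other 3. The part of mural RNA in the basement membrane values of library 421 was not tested. Without that library Fn1 stood at 3.10 (adjusted p = 6.59e-06) and Col4a1 at 1.78 (adjusted p = 5.01e-05).

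Genes of microglia were also higher in the pull-down. All 14 listed members rose, 8 of 8 among those listed by their input (median 3.82). The complement gene C1qa was at 6.10, 5.14 and 6.75 CPM in the inputs and 36.2, 129.9 and 166 CPM in the positive libraries (4.21 ± 0.50, adjusted p = 3.99e-04). C1qb was at 7.09, 4.58 and 6.21 (input) and 25.5, 124 and 153 CPM (positive), and the signalling adaptor Tyrobp at 1.31, 0.934 and 0.964 (input) and 19.3, 40.6 and 48.0 CPM (positive) (5.08 ± 0.38, adjusted p = 2.18e-05). The order of the positive libraries was the reverse of that for Tie1 and Cdh5, with 421 lowest for all 14 microglia genes and 960 highest for all 14. Tmem119, which marks microglia among macrophages, was at 9.49, 52.3 and 53.8 CPM against 3.22, 2.24 and 1.18 CPM (4.15 ± 0.63, adjusted p = 0.00167). Of 13 macrophage genes, 2 are listed, the lysozyme Lyz2 at 3.41, 2.06 and 3.70 (input) and 34.4, 74.7 and 115 CPM (positive) and the class II chain Cd74 at 0.656, 1.64 and 1.93 (input) and 10.4, 28.5 and 39.8 CPM (positive), and Mrc1, Cd163 and F13a1 are not. Of 13 leukocyte genes, 3 are listed (Coro1a, Cd52 and Lcp1), and Ptprc, Cd3e and Cd79a are not. The red cell gene Hba-a1, whose reads may be shared with its near copy Hba-a2, went from 3.68, 13.2 and 14.7 to 42.1, 61.2 and 33.4 CPM (2.09 ± 0.43, adjusted p = 0.00764), and the platelet gene Gp1bb was level (adjusted p = 0.564).

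The summed level of the endothelial list was 333, 300.1 and 346 CPM in the inputs and 7941, 5679 and 4829.6 CPM in the positive libraries, or 24.3, 17.4 and 14.8 times the mean input. That of the microglia list was 91.8, 86.0 and 95.5 CPM and 354, 1273 and 1583 CPM, or 3.89, 14.0 and 17.4 times. Among the positive libraries, endothelial RNA was therefore highest in 421 and lowest in 960, and microglial RNA the reverse. Both sums include members that entered through the positive fraction, 22 of 34 endothelial and 6 of 14 microglia genes. Their ratios to the input are therefore partly set by the listing rule. The rod sum was 70145, 70232 and 67507 CPM in the inputs and 42318, 55869 and 66914 CPM in the positive libraries, or 0.611, 0.806 and 0.966 times, so rod RNA in library 960 lay just below the lowest input.

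**Figure D4:**
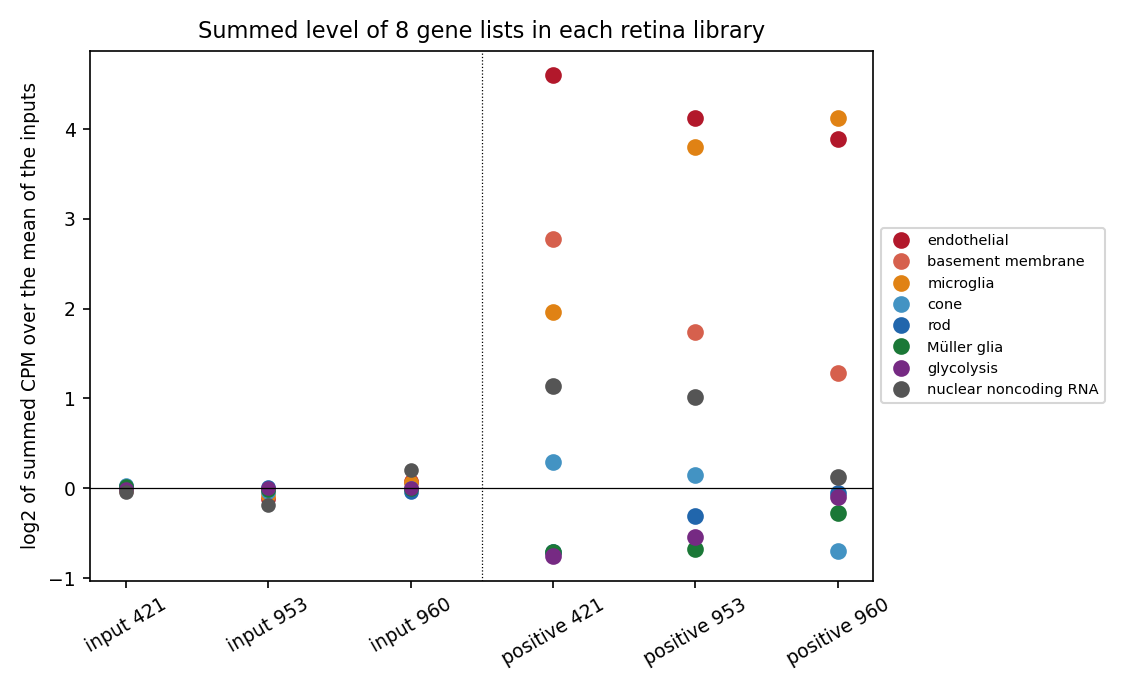
Summed CPM of 8 gene lists in each of the 6 retina libraries, as log2 of the ratio to the mean of the 3 inputs. The sums include members that entered through the positive fraction. From positive 421 to 953 to 960 the endothelial and basement membrane points come down, the microglia points go up, and the rod, Müller glia and glycolysis points come nearer to 0.

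Antigen presentation and interferon response genes rose nearly throughout. All 14 listed members of the class I list rose, 10 of 10 among those listed by their input (median 1.69). B2m, the invariant light chain, went from 20.3, 17.1 and 22.5 to 254, 281 and 287 CPM (3.78 ± 0.14, adjusted p = 5.71e-07), and the class I gene H2-T23 from 6.56, 5.98 and 6.27 to 73.7, 65.3 and 64.0 CPM (3.43 ± 0.13, adjusted p = 5.71e-07). Both were nearly level over the positive libraries. H2-Q6 and H2-Q7 are near copies, so how reads were split between them is uncertain, and they are counted but not described. Of 9 interferon response genes listed by their input, 8 rose and 1 did not pass (median 1.18). Ifitm3, which restricts viral entry, went from 3.81, 2.48 and 4.39 to 84.9, 95.0 and 108 CPM (4.76 ± 0.21, adjusted p = 1.50e-06), Bst2, tetherin, from 2.23, 1.21 and 1.82 to 17.0, 25.2 and 27.6 CPM (3.75 ± 0.29, adjusted p = 2.36e-05), and Rsad2, viperin, from 1.44, 1.59 and 1.50 to 24.9, 15.9 and 14.2 CPM (3.58 ± 0.27, adjusted p = 2.41e-05). Ifitm3 and Bst2 were highest in positive 960, and Rsad2 in 421. Ly6a, the stem cell antigen that neural capillaries carry, went from 2.43, 2.80 and 4.12 to 282, 239 and 313 CPM (6.47 ± 0.22, adjusted p = 5.55e-07), and Ly6e from 26.2, 18.9 and 21.2 to 328, 317 and 344 CPM (3.91 ± 0.15, adjusted p = 5.71e-07).

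Of 23 rod genes, 21 had a negative log2 fold change (median -0.30), 18 did not pass and 5 were lower, against 14.1% lower over all genes listed by their input: Sag, Cngb1, Pde6a, Rp1 and Gucy2e. Gnat1 was at 5555, 8670.2 and 10269.7 CPM in the positive libraries and was not called (-0.26 ± 0.23, adjusted p = 0.421). Sag was at 3319, 3363 and 3151 CPM in the inputs and 1846, 1973 and 2723 CPM in the positive libraries (-0.59 ± 0.17, adjusted p = 0.0323), and Cngb1 at 1382, 1422 and 1371 (input) and 909, 955 and 1067 CPM (positive) (-0.51 ± 0.12, adjusted p = 0.0135). All 5 rod calls were lost without input 421, 953 or 960. Lower calls over all genes dropped there too, from 1696 to 710, 659 and 586. Sag hardly moved in these fits (-0.58, -0.57 and -0.62), nor did Cngb1 (-0.52, -0.49 and -0.52). Without positive 953, 1 rod call was left, and 15 rod genes were lower without positive 960. DESeq2 called 8 lower, and without positive 421, 2 rose. Gucy2e was also lost with the replicate block (adjusted p = 0.0672). Positive 421 was the lowest of its fraction for Gnat1, Sag and Cngb1, and 960 the highest. Of 14 cone genes, 8 fell, 1 rose and 5 did not pass, and 5 fell without input 421, 953 or 960 or without positive 953. Opn1mw, the middle-wavelength opsin, went from 98.2, 93.1 and 103 to 32.2, 29.2 and 18.3 CPM (-1.90 ± 0.19, adjusted p = 1.45e-04), and the cone transducin chain Gngt2 from 58.0, 53.8 and 48.0 to 22.7, 22.5 and 28.7 CPM (-1.10 ± 0.14, adjusted p = 6.04e-04). Cone arrestin, Arr3, ran against Pde6h and Opn1mw: it was at 129.8, 113 and 101 CPM in the inputs and 661, 615 and 115 CPM in the positive libraries, high in 421 and 953 and within the inputs in 960. Its call (2.01 ± 0.52, adjusted p = 0.0195) was lost without input 421, 953 or 960 (adjusted p = 0.0569, 0.0696 and 0.0769) and without positive 953 (adjusted p = 0.0891), and without positive 960 the log2 fold change was 2.50 (adjusted p = 2.46e-06). The transducin chain Gnat2 was also lowest in 960, at 149, 123 and 68.9 against 155, 141 and 145 CPM, and was not called (adjusted p = 0.252), but it was lower without positive 421 (-0.63, adjusted p = 0.0355).

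Several genes of inner retinal neurons and glia were lower by modest amounts. Of 16 Müller glia genes, 15 had a negative log2 fold change, 10 fell and 1 rose, and 7 to 14 fell when a library was left out, with 7 without positive 953. The water channel Aqp4 went from 159.7, 151 and 163 to 58.6, 81.7 and 96.7 CPM (-0.99 ± 0.17, adjusted p = 0.00300), the retinaldehyde-binding protein Rlbp1 from 426, 393 and 385 to 172, 182 and 275 CPM (-0.93 ± 0.18, adjusted p = 0.00537), and clusterin, Clu, from 558, 568 and 619 to 220.3, 266 and 392 CPM (-0.99 ± 0.20, adjusted p = 0.00672). In all 3, positive 421 was lowest and 960 highest, yet still below the inputs. The member that rose was Vim, from 103, 101 and 104 to 321, 263 and 253 CPM (1.44 ± 0.12, adjusted p = 3.97e-05), an intermediate filament that endothelial cells and microglia make too. Apoe, used by Müller glia and microglia, was at 772, 758 and 767 CPM in the inputs and 391, 715 and 1085 CPM in the positive libraries, and was not called (adjusted p = 0.878). Its order over the positive libraries was that of the microglia genes, but also that of Aqp4, Rlbp1 and Clu. Positive 960 was the highest of its fraction for 12 of the 16 Müller glia genes, so the order does not separate these cells. Of 13 ganglion cell genes 6 fell, and 3 did without positive 953. Tubb3, a neuronal tubulin, went from 105, 102 and 101 to 34.5, 43.6 and 61.4 CPM (-1.14 ± 0.19, adjusted p = 0.00254). Of 11 amacrine genes 5 fell, 3 did without input 953 or 960, and 2 did without positive 953. Among them the GABA-synthesizing enzyme Gad1 went from 244, 261 and 260.2 to 157, 132 and 190.3 CPM (-0.67 ± 0.14, adjusted p = 0.00788). Of 15 bipolar genes 3 fell (Vsx1, Grik1 and Scgn) and 2 rose (Gpr179 and Pcp2), against 14.1% lower and 15.8% higher over all genes listed by their input. Without positive 421, 5 rose, without positive 960, 6 fell, and without input 421 or 953, 1 rose. The calcium-binding protein Scgn fell from 60.4, 55.9 and 60.2 to 32.3, 27.3 and 36.3 CPM (-0.87 ± 0.13, adjusted p = 0.00147), whereas Pcp2 rose from 137, 127 and 126 to 176, 272 and 299.7 CPM (0.94 ± 0.18, adjusted p = 0.00607). Of 6 horizontal cell genes 3 were lower (Lhx1, Calb1 and Prox1), and all of these calls were lost without input 421, 953 or 960, with 2 left without positive 421 and 1 without positive 953. Lhx1 stood at -1.13, and at -1.85 without positive 960.

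Genes listed for the retinal pigment epithelium (RPE), the layer behind the retina, did not move alike. Ttr, the retinol carrier transthyretin, went from 44.7, 48.8 and 69.1 to 9.78, 9.51 and 11.7 CPM (-2.38 ± 0.20, adjusted p = 3.94e-05), and Rgr, an opsin of RPE and Müller glia, from 39.4, 41.3 and 58.0 to 15.0, 7.45 and 11.3 CPM (-2.03 ± 0.25, adjusted p = 4.44e-04). Of 9 RPE genes listed, 4 fell (Ttr, Rgr, Rpe65 and Rdh5), 1 rose and 4 did not pass, and without input 960 or positive 953 only 2 fell. Rpe65 stood at -1.52, and at -2.31 without positive 421. The list member that rose was the retinol transporter Stra6, from 8.27, 8.41 and 11.6 to 153, 107 and 74.2 CPM (3.55 ± 0.28, adjusted p = 2.66e-05), and positive 421 was again highest and 960 lowest. Which cells its RNA came from was not tested. Of 13 lens crystallins only Cryab is listed, at 29.1, 28.3 and 30.9 CPM in the inputs and 12.7, 19.3 and 29.3 CPM in the positive libraries (adjusted p = 0.157), and it was called with the replicate block (-0.58, adjusted p = 0.0495) and without positive 960 (-0.86, adjusted p = 0.00488).

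Housekeeping classes showed small shifts. Over all genes listed by their input, 15.8% were higher and 14.1% lower. Of 80 ribosomal protein genes, 14 (17.5%) rose and 2 (2.5%) fell with a median log2 fold change of 0.17. The higher count was 5 without input 421, 953 or 960, 28 without positive 421 and 9 with the replicate block. Besides Rpl10a, Rpl41 rose from 178, 181 and 151 to 288, 292 and 311 CPM (0.80 ± 0.11, adjusted p = 9.55e-04). Of 78 nuclear genes of the respiratory chain, 3 (3.85%) rose and 4 (5.13%) fell (median -0.03). These counts moved when 1 library was left out. Without positive 421, 13 rose, and without positive 960, 19 fell. Without input 421, 953 or 960 the 3 higher calls were lost and 1 gene fell. Without positive 953, 1 rose and 1 fell, and 1 rose with the replicate block. Of 17 glycolysis genes 7 fell and 1 (Gpi1) rose (median -0.59): 10 fell with the replicate block, 14 without positive 960, 1 without input 953, and 2 without input 421, input 960 or positive 953. Their sum was 0.591, 0.688 and 0.939 times the mean input in the positive libraries, so it was lowest in 421. Aldoc, the aldolase of neural cells, went from 445, 442 and 421 to 193, 197 and 285 CPM (-0.95 ± 0.16, adjusted p = 0.00284). No gene of the mitochondrial genome is listed (0).

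Most of the nuclear long noncoding RNAs listed rose. Of 8, 6 rose and 2 did not pass (median 0.89), and 2 rose without input 421 or 953, 3 without input 960 and 3 without positive 953. Snhg11 went from 539, 482 and 609 to 1849, 1445 and 805 CPM (1.33 ± 0.27, adjusted p = 0.00700), Miat from 52.4, 41.9 and 55.4 to 122, 114 and 68.9 CPM (1.02 ± 0.21, adjusted p = 0.00790), and Malat1 was at 1805, 1683 and 2892 (input) and 3175, 3093 and 1750.1 CPM (positive) and not called (adjusted p = 0.389). Positive 960 was lowest for all 3. Immediate early genes respond to tissue handling. Of 15 listed by their input, 6 rose and 9 did not pass (median 0.41), and 1 more rose that entered through the positive fraction. Over all genes listed by their input, 15.8% were higher. Ier5 went from 20.9, 27.3 and 21.4 to 53.4, 47.6 and 55.1 CPM (1.16 ± 0.14, adjusted p = 4.36e-04) and Zfp36 from 7.48, 6.87 and 6.91 to 21.5, 22.2 and 15.7 CPM (1.47 ± 0.19, adjusted p = 5.72e-04).

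The 12 called genes with the largest rise and the 12 with the largest fall, at 10 CPM or more on average, follow. Gm694, a gene with no settled name, had 2 counts over all 3 inputs and 174, 140 and 331 counts in the positive libraries, too few in the inputs for a fold change, and lay at 25.8, 22.2 and 29.7 CPM. Ly6c2, a near copy of Ly6c1 with which it may share reads, had 6 input counts and lay at 35.0, 25.4 and 24.3 CPM. The adenylate cyclase Adcy4, at 43.1, 31.1 and 27.5 CPM, and the GTPase Gimap6, at 62.4, 49.6 and 45.4 CPM, had 11 and 18 input counts, and Zfp366 (11 input counts) and Cyyr1 (17) reached 39.6, 29.2 and 17.7 and 52.0, 35.4 and 25.3 CPM. Srgn, the proteoglycan serglycin of endothelial and blood cells, went from 0.459, 0.374 and 0.482 to 65.1, 62.0 and 45.3 CPM (7.01 ± 0.24, adjusted p = 5.55e-07). It had 24 input counts, so its fold change is imprecise. All 7 of these genes were under 1 CPM in each input. The other 5 of the 12 were Erg, Ly6c1, Cdh5, Sox17 and Gata2, described above. All 12 are listed through the positive fraction alone, so the listing rule itself required them to be high there. At the low end, besides Ttr, Pde6h, Rgr and Opn1mw, the receptor Fzd10 went from 16.4, 14.9 and 18.9 to 3.71, 3.65 and 4.76 CPM (-2.03 ± 0.20, adjusted p = 1.32e-04), the prenyltransferase-related gene Ptar1 to 8.75, 5.23 and 7.72 CPM (-1.74 ± 0.20, adjusted p = 3.05e-04), the secreted protein Spp1 from 14.6, 17.8 and 19.7 to 3.26, 7.77 and 6.11 CPM, the prostaglandin synthase Ptgds from 65.7, 65.6 and 103 to 24.9, 19.8 and 35.3 CPM, and the nuclear receptor corepressor Lcor from 24.2, 23.9 and 26.2 to 10.7, 9.67 and 6.65 CPM. Zbtb37 and Zfp804b, which encode zinc finger proteins, fell by 1.58 and 1.50 on the log2 scale. The remaining one, the ribosomal RNA gene Rn45s, was at 4554, 2539 and 12018 CPM in the inputs, with input 960 far above the others, and 2138, 2155 and 1370.2 CPM in the positive libraries. Its call (-1.76 ± 0.50, adjusted p = 0.0278) was lost without input 960 (-0.91, adjusted p = 0.0801) and without positive 953 (adjusted p = 0.0959).

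Levels per kilobase of exon, which allow genes to be set beside each other, were still highest for photoreceptor genes in the positive fraction. Gnat1 was at 2696 CPM per kb there and 3220.0 in the inputs. Of the 10 genes highest per kb in the positive fraction, 7 are photoreceptor genes, among them Gnat1, Rom1 and Prph2, and 1 is Bsg, basigin, an immunoglobulin protein of barrier endothelium, photoreceptors and RPE. Bsg was the only one of the 10 to rise, from 794, 787 and 752 to 2263, 2007 and 2092 CPM (1.45 ± 0.12, adjusted p = 4.46e-05). Cldn5 was at 347 CPM per kb in the positive fraction and 3.24 in the inputs.

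The brain pull-down of the same series served to show where the retina differed. The difference of the log2 fold changes, retina minus brain, was tested with edgeR over 11618 genes listed in both tables (3 positive and 3 input libraries of each tissue), and 584 (5.03%) were higher in retina and 1129 (9.72%) lower. These counts, and which of them is larger, depend on single libraries and on the fit. They were 2649 and 1819 without brain input 960, and the closing section gives the range. Brain input 960 held 9596740 counts over listed genes, against 32064355 and 26555197 in brain inputs 421 and 953. CPM was scaled within each tissue, so levels are not matched between tissues. The enrichment of Cldn5, Cdh5 and Tie1 was not called different (differences of 1.50 ± 0.59, 1.48 ± 0.51 and 0.88 ± 0.41, adjusted p = 0.111, 0.0719 and 0.170), but this call depends on the fit. With all 18 libraries in 1 fit both Cldn5 (1.74, adjusted p = 0.0433) and Cdh5 (1.76, adjusted p = 0.0492) were called higher in retina. Cldn5 was also called without brain input 421 (1.83, adjusted p = 0.0445) and without brain input 960 (0.78, adjusted p = 0.0159), and Cdh5 without retina positive 960 (1.74, adjusted p = 0.0299), without brain input 960 (1.94, adjusted p = 0.00787) and with the replicate block (1.31, adjusted p = 0.0432). Kdr had a log2 fold change of 5.14 in brain, from a mean input of 4.44 CPM, against 0.19 in retina, from 129 CPM (difference -5.07 ± 0.41, adjusted p = 2.00e-05). For Cav1 the values were 4.74 and 0.83, from mean inputs of 10.8 and 56.4 CPM (difference -4.04 ± 0.25, adjusted p = 3.44e-06). Prom1, the membrane protein prominin-1 of photoreceptor discs, had 5.12 and -0.15, from 10.1 and 629.7 CPM (difference -5.39 ± 0.38, adjusted p = 8.60e-06). Gngt2 followed, with 3.94 in brain and -1.10 in retina (difference -5.19 ± 0.58, adjusted p = 1.86e-04).

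In the other direction, Mal, a raft protein best known from myelin, rose from 3.15, 4.67 and 2.68 to 358, 358 and 262 CPM in retina (6.52) and by 1.13 in brain, where its mean input was 256 CPM (difference 5.28 ± 0.30, adjusted p = 2.85e-06). The lipocalin Apod went from 0.263, 0.888 and 0.964 to 13.5, 18.2 and 30.3 CPM in retina and was at 299.9 CPM in brain inputs (difference 5.02 ± 0.56, adjusted p = 1.67e-04). The creatine synthesis enzyme Gatm went from 1.77, 2.01 and 1.55 to 46.2, 42.3 and 32.6 CPM in retina, with 213 CPM in brain inputs (difference 4.19 ± 0.30, adjusted p = 8.74e-06), and the guidance cue Ntn1 from 0.591, 0.888 and 1.29 to 44.8, 28.4 and 30.1 CPM, with 30.7 CPM in brain inputs (difference 3.92 ± 0.41, adjusted p = 1.20e-04). In each of these 4 the brain input was above the retina input, on scales that were set within each tissue. The part of the input level in these differences was not tested.

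**Figure D5:**
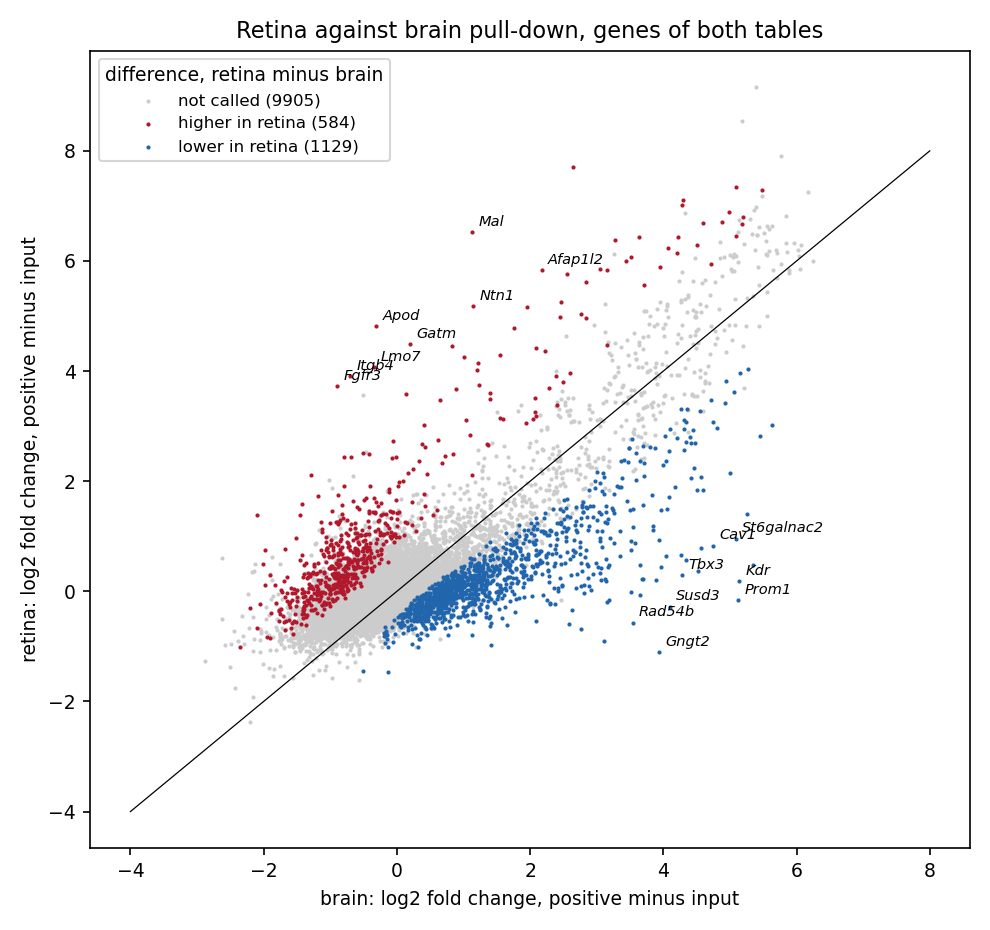
Log2 fold change (positive minus input) in retina against that in brain for 11618 genes, with red for genes whose difference was called higher in retina, blue for lower, grey for not called, and the line of equal values. The 16 genes named are the 8 highest and 8 lowest called differences with a mean of at least 10 CPM.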

How the data were processed

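Ribosome pull-down and input RNA of 3 retina replicates was sequenced (directional kit, whether counts used strand is not stated). The authors deposited per tissue a table of raw values, which are estimated counts per gene (91.5% in retina are more than 0.001 from a whole number). Per the file headers it also holds normalized values, which match the log2 of the raw ones relative to the inputs and served only as a check. The submitters' processing notes name DESeq and mm10, while no aligner or counter is given in the sources used here. Raw values were rounded, scaled by TMM and tested with edgeR 4.0.16 (R 4.3.3) by the quasi-likelihood F test with Benjamini-Hochberg adjustment at 0.05, over all 12369 genes, without a replicate block. The standard error is the log2 fold change divided by the square root of F. Input and positive of a number share a lysate, so the numbers pair the samples, and their deviations from group means correlated at 0.0868, 0.0656 and 0.00806. Alternatives were the block, DESeq2 1.42.0, other scalings, a stricter filter, thinning to equal depth, and leaving out each library or replicate. The fits were tested on simulated data. The members and lists were chosen with earlier results of these data known. Genes named came from the 4 markers, Rpl10a, the 12 highest and 12 lowest called changes without overlap and with a mean of at least 10 CPM, the 10 highest per kb, up to 6 called and 3 uncalled members of each of 44 lists, and the 8 highest and lowest differences to brain, and others are marked as named after their values were seen, while a few genes under this rule are not reported here. The choroid libraries entered only an alternative fit of the brain comparison.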

Additional observations from a re-analysis of the deposited data

Results flagged for a closer look

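Of the genes named in the report and the 16 largest, 53 had a log2 fold change in retina that differed from that in brain by the test of the difference itself (edgeR, adjusted p under 0.05), 28 lower and 25 higher in retina. The 16 were picked because their difference was called, so the 53 are a list and not a share of genes tested. Over all 11618 genes, 9.72% were lower and 5.03% higher in retina. Levels of the 2 tissues were scaled separately, and the part of input levels in the differences was not tested.

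Besides Prom1 (-5.39), Gngt2 (-5.19), Kdr (-5.07) and Cav1 (-4.04), the lowest were the sushi domain gene Susd3 (-4.51), the sialyltransferase St6galnac2 (-4.25), the DNA repair gene Rad54b (-4.22) and the T-box factor Tbx3 (-4.11). Receptors and their partners were lower in retina for VEGF, with Flt1 at -2.73 and Flt4 at -1.79, and for Wnt and Norrin, with Gpr124 at -2.25, Reck at -1.39, Fzd4 at -1.77 and Lrp5 at -1.40. Transporters and barrier proteins that were lower were Slc6a6 (-3.46), Slc2a1 (-1.90), Bsg (-1.70), Slc16a1 (-1.30), Cav2 (-1.75) and Esam (-1.55). The others lower in retina were the leukocyte gene Cd52 (-2.19), Zfp36 (-2.15), Vim (-1.82), H2-Q7 (-1.36), which shares reads with a near copy, Scgn (-1.35), Etv6 (-1.19), Rom1 (-1.17) and Rbpj (-0.88).

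Higher in retina, besides Mal (5.28), Apod (5.02), Gatm (4.19) and Ntn1 (3.92), were the growth factor receptor Fgfr3 (4.49), the integrin Itgb4 (4.49), the scaffold Lmo7 (4.29) and the actin filament-associated Afap1l2 (3.53). Among endothelial genes, Car4 (3.11), Cd34 (2.68), Thbd (2.44), Mfsd2a (2.16), Sdpr (1.80), Vwf (1.38), Ptprb (1.26) and Vcam1 (0.99) were higher. So were the regulators Lef1 (1.82), Gata2 (1.80) and Fli1 (1.73), and Zfp366 (2.72), Srgn (2.61), Adcy4 (2.14), Snhg11 (2.01), Gimap6 (1.69) and Miat (1.38). The calls of 17 of the 53 were lost under at least 1 alternative: Sdpr, Slc16a1, Lef1, Reck, Mfsd2a, Cd52, Rbpj, Miat, Vwf, Fzd4, Ptprb, Scgn, Zfp366, Adcy4, H2-Q7, Lrp5 and Rom1.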

How the results depend on the processing

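In every alternative, the enrichment of Cldn5, Cdh5, Ly6c1 and the lower level of Pde6h kept direction and call. Cdh5 and Ly6c1 are listed through the positive fraction alone. Leaving out 1 library or 1 replicate number moved the count of genes higher from 2226 to between 722 and 3095, lower from 1696 to between 110 and 2653, at least 2-fold higher from 1074 to between 685 and 1331, and at least 2-fold lower from 113 to between 56 and 262. For the difference to brain the counts higher ran from 230 to 2649 and lower from 638 to 1819. With the replicate block the difference to brain counted 371 higher in retina against 584, and the retina counts were 2185 higher and 1701 lower. With all 18 libraries in 1 fit 875 differences were higher and 522 lower in retina, and with library size only 818 and 679, against 584 and 1129. Which direction held more genes therefore depended on the fit. Without positive 421, values that were not called turned for Slc16a1 to -0.02, Kdr to -0.16, Apoe to 0.24 and Pdgfrb to -0.46. Leaving out each library or number, they ranged up to 0.34 for Slc16a1, 0.38 for Kdr and 1.61 for Pdgfrb, and down to -0.47 for Apoe. The cause was not tested. Over the 160 genes named, 2377 of 2528 values kept direction and call, and 130 values in 37 genes lost it, while 14 values in 9 genes gained a call. Among named genes the block changed no call other than those given for Ndp, Gucy2e, Cryab and, for the difference to brain, Cdh5, Cd52, Miat, Ptprb and Zfp366. In simulated retina data of this depth, 23.9% of genes changed by 1.5-fold were called, 77.6% of those changed by 2-fold and all (100%) of those changed by 4-fold. For the difference to brain the shares were only 1.49%, 19.4% and 87.9%. A difference to brain that was not called is therefore no sign of equal enrichment. False calls made up 6.94% of the simulated retina calls and 7.69% of those for the difference. Changes were placed only in genes above a minimum mean count.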

Other observations

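Counts of 3 gene families that are in no list follow as a description, since the families were chosen after their values were seen. Over all genes 18% were higher and 13.7% lower. Of 323 listed genes with symbols starting Zfp, which encode zinc finger proteins, 28 were higher and 53 lower (median log2 fold change -0.11). Of 35 Zbtb genes, zinc finger factors with a BTB domain, 4 were higher and 13 lower (median -0.34). Of 31 Klhl and Kbtbd genes, BTB adaptors of ubiquitin ligases, 5 were higher and 11 lower (median -0.31). Over all genes the median was -0.01.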
